A study of Drosophila melanogaster with 24 samples.

Results

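The genes described here were the annotated noncoding genes whose name in the expression tables was CR followed by a 4 or 5 digit number, or Uhg followed by a number. They were chosen by name among the genes that passed the study's filter on low values in at least 1 table. Together 305 of the 12506 genes listed in at least 1 table had such a name. The tables came from mRNA sequencing of whole male *w1118* flies, a stock that is mutant for the eye color gene *white*, in a *Drosophila* model of traumatic brain injury. Younger (0 to 7 days old) and older (20 to 27 days old) flies were struck in a high-impact trauma (HIT) device or left uninjured and then kept on water for 2 hr or on molasses food for 4 hr, which gave 4 conditions named by age and diet (younger water to older food). Each condition had 3 injured and 3 uninjured libraries, 24 in all, and all flies were raised at the same temperature on the same food before the experiment. Diet and time after injury changed together and cannot be told apart.

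Noncoding RNA genes make RNAs that are not translated, and in flies many of them are transcribed at low levels in a single tissue, with the testis a known site for many. Antisense genes are transcribed from the strand opposite another gene, and intergenic ones lie between genes. The Uhg genes, or U snoRNA host genes, are spliced RNAs whose introns carry small nucleolar RNAs (snoRNAs), the guides that direct chemical modification of ribosomal RNA (rRNA).

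The measure available for each gene in each condition was the authors' mean logCPM, the log2 of the counts scaled to a common library total (CPM), averaged over the 6 injured and uninjured libraries of that condition. It is a value pooled over injury, so the response of these genes to injury was not analysed here. Between conditions, a difference in the level of uninjured flies and one in the response to injury cannot be told apart. No spread between libraries could be measured. A difference between conditions is therefore given as a description, with no test. It is read against the share of all genes that differed as much, and a difference of 1 on the log2 scale (2-fold) is called higher or lower. Where 4 values of a gene are given in a row, they stand for younger water, then younger food, then older water, and last older food. The logCPM of a gene is not adjusted for its length. In bulk RNA from whole flies, fewer cells of a type and less RNA per cell cannot be told apart.

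By their names in the Release 6 annotation, 191 of the 305 genes were long noncoding RNAs, 93 were antisense RNAs, 7 were snoRNA hosts (*Uhg1* to *Uhg5*, *Uhg7* and *Uhg8*), 2 were hairpin RNAs, 2 were pseudogenes and 2 were rRNA pseudogenes. The other 8 are named there as protein-coding genes (*CR17567*, *CR43051*, *CR43497*, *CR43610*, *CR43844*, *CR43845*, *CR43920* and *CR44198*), so the CR name no longer marks them as noncoding. They stay in the counts of noncoding genes given here. The genes were short, with a median exon length of 845 bases against 1855 bases for all genes, and 127 had a single exon. Exon bases were shared with a gene on the opposite strand by 104 of them, and 68 lay within an intron of another gene. On the same strand, 23 shared exon bases with another gene. Among these were *CR42862* (with *CG33229*), *CR42491* (*RpL22*), *CR32660* (*Sclp*) and *Uhg7* (*RpL23A*). The library kit did not mark strand. Within shared bases on either strand, reads from the gene and from its partner cannot be told apart. The bases shared with an opposite-strand gene ran from 1 to 3528.

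The noncoding genes were listed much less evenly across the conditions than other genes. A gene was listed in a table when it passed the study's filter on low or empty values. The younger tables held 267 (water) and 268 (food) of the 305 genes, and the older ones held 187 (water) and 204 (food). In all 4 tables, 152 of them (49.8%) were listed, against a background of 91.6% of all genes. A further 63 (20.7%) were listed in both younger tables and in neither older table, against 2.61% of all genes. In the opposite direction, 9 (2.95%, against 0.272% of all genes) were listed in older water alone, 8 (2.62%, against 0.488%) in both older tables and in no younger table, and 3 (0.984%, against 0.384%) in older food alone.

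**Figure D1:**
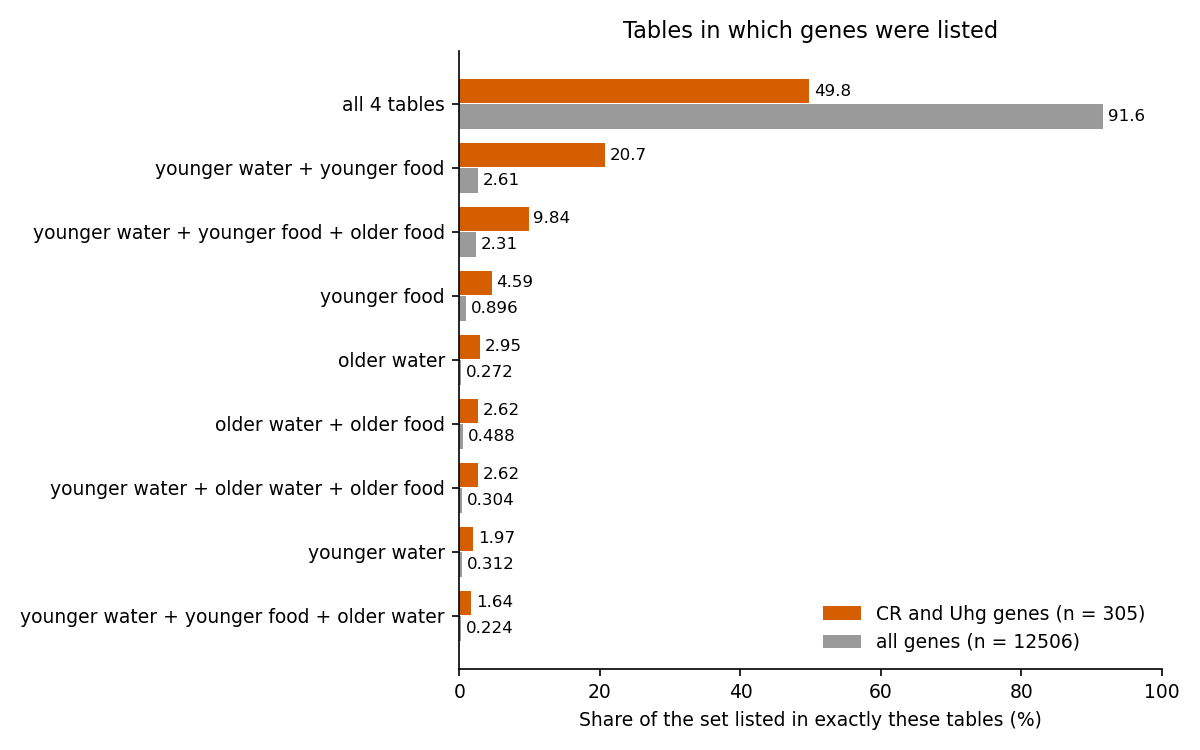
Share of the 305 CR and Uhg genes (orange) and of all 12506 genes (grey) listed in exactly the tables named on the vertical axis, in percent, for the 9 most frequent patterns. The orange bar is at 49.8% for all 4 tables and at 20.7% for the younger tables alone, where the grey bar is at 2.61%.

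Low level went along with part of this pattern. Among genes with a mean logCPM under 1, 11.5% of 113 noncoding genes and 21.8% of all genes were listed in all 4 tables, and 38.9% and 23.3% were listed in the younger tables alone. Between 1 and 2 the shares in all 4 tables were 52.4% of 105 noncoding genes and 67.2% of all genes. From 2 upward the gap closed, since 36 of 39 noncoding genes between 2 and 3 (92.3%, against 93.7%) and all 48 at 3 or more were listed throughout.

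The 63 genes of the younger tables alone had a median logCPM of 0.71 (0.05 to 1.74) on water and 0.87 (0.18 to 1.96) on food, and the lowest value of any gene in the older tables was -0.29 on water and 0.03 on food. Of these genes 47 were long noncoding RNAs and 16 were antisense RNAs, and none was a snoRNA host. The 17 genes listed in older water but in neither younger table had a median logCPM of 0.52 there, and the highest was the intergenic *CR43651* with 2.13 on water and 1.25 on food.

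The 32 genes listed in a single table were 21 long noncoding RNAs, 10 antisense RNAs and 1 gene now named as protein-coding, and 14 of them were listed in younger food alone. Over all genes this was 112 of the 233 listed in a single table, so the lean toward younger food was not particular to the noncoding genes. The 5 with the highest level were all from younger food. *CR44049*, antisense to the zinc finger gene *woc*, had a logCPM of 1.36 there, and *CR43661* had 1.02. *CR44228*, antisense to *CG11768*, had 0.86. *CR43283*, also known as *cherub* and studied in neural stem cells of the larval brain, had 0.82, and *CR40053* had 0.78. All 5 lay in the low range where listing was uneven for all genes. In the same table, 5 of 10 markers of ovary and female fat body were listed (the yolk protein genes *Yp1*, *Yp2* and *Yp3*, the chorion gene *Cp15* and the yolk receptor gene *yl*), against 1 or 2 in each of the other tables. *Yp2* had a logCPM of 5.63 in younger food and was listed in no other table. The part of such RNA in the genes listed in younger food alone was not tested.

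When listed, the noncoding genes had a far lower level than other genes. Their median logCPM in the 4 tables was 1.62, 1.64, 1.58 and 1.53, against 4.60, 4.60, 4.52 and 4.59 for all genes. A logCPM below 2 was measured for 58.3 to 60.8% of the noncoding genes in each table and for 10.7 to 14.6% of all genes. Only 11 to 16 noncoding genes per table reached a logCPM of 5, 5.39 to 6.42% of those listed, whereas 42.0 to 43.0% of all genes did.

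**Figure D2:**
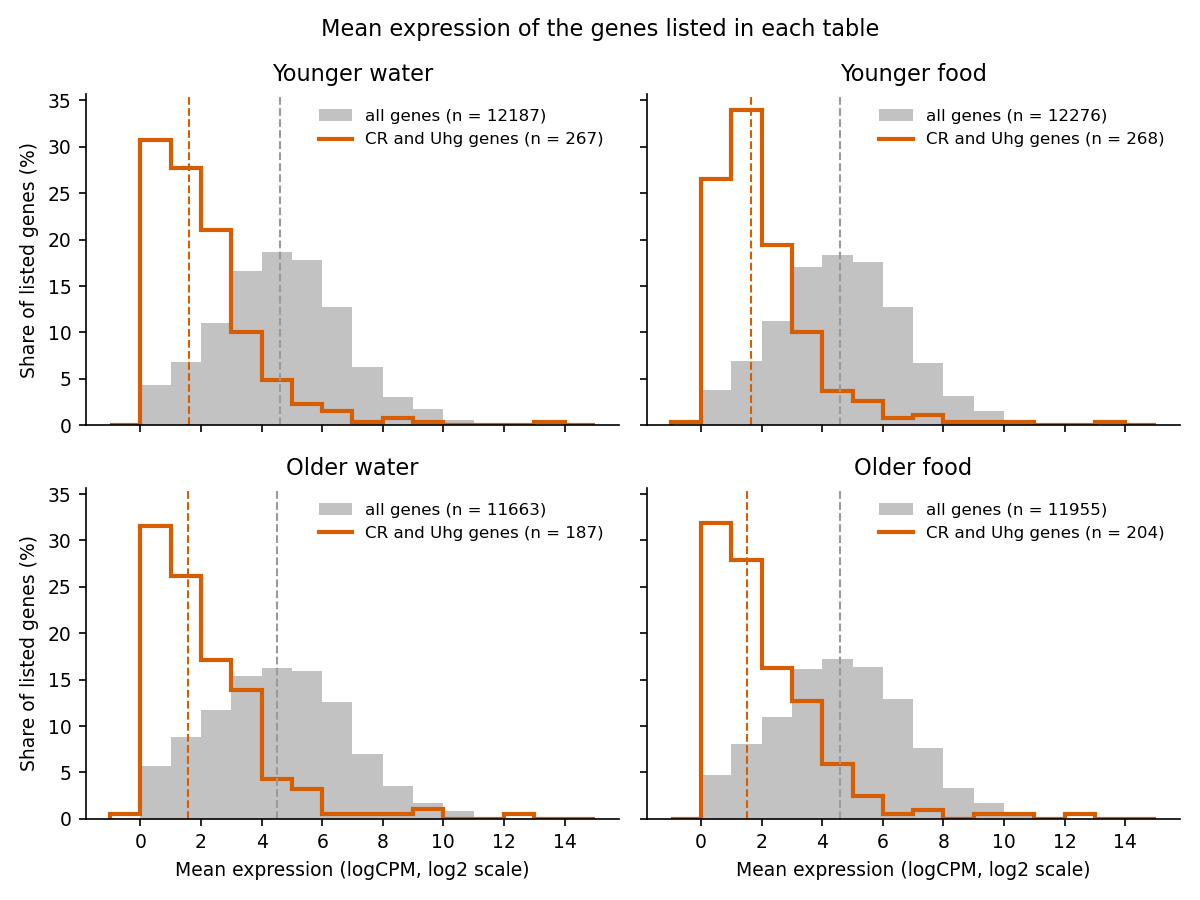
Distribution of mean expression (logCPM, log2 scale, bins of 1) of the CR and Uhg genes (orange line) and of all genes (grey area) listed in each of the 4 tables, as percent of the genes listed. Dashed lines are medians, which lie between 1.53 and 1.64 for the CR and Uhg genes and between 4.52 and 4.60 for all genes.

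The noncoding genes held 1.58% (water) and 1.84% (food) of the summed CPM of younger flies, and 0.758% and 0.776% in older flies. Most of this came from 1 gene. *CR41602*, annotated as an 18S rRNA pseudogene, accounted for 12529 of their 15900 CPM in younger water and 14303 of 18500 in younger food. In older flies it accounted for 4229 of 7600 on water and 4142 of 7780 on food. Its logCPM was 13.61, 13.80, 12.05 and 12.02, higher in both younger tables than in either older table. *CR40677*, a 2S rRNA pseudogene next to it, had 8.24, 9.04, 7.49 and 7.37. Both resemble functional rRNA genes, to which reads can also align, and the libraries were made from polyadenylated RNA, so their levels are uncertain.

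Per kilobase of exon, *CR40677* and *CR41602* ranked first and second among the 152 genes listed in all 4 tables, with 13.09 and 11.89 as log2 CPM per kilobase averaged over the tables. The exons of *CR40677* cover 30 bases, less than a read, and its value per kilobase has little meaning. The next were 3 long noncoding RNAs, *CR34335* with 8.55, *CR31781* with 7.62 and *CR42862* with 7.43 on the same per-kilobase scale. They were followed by *CR17567* (7.36), which the reference now names as the protein-coding gene *CG46059*. *CR43684* (6.42), *CR43239* (6.41), *CR43994* (6.40) and *CR32657* (6.15) completed the 10 most abundant per length, and without replicate values the order of such near neighbors is not resolved.

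These abundant genes differed in how level varied over the conditions. *CR34335* had a logCPM of 6.54, 5.98, 8.17 and 7.61, so that it was higher in older flies, with a difference of -0.56 between food and water at either age. *CR31781* had 8.54, 8.24, 9.82 and 9.56, also higher in both older conditions. *CR42862* followed diet more than age, with 9.32 and 10.25 on water and food in younger flies and 9.68 and 10.29 in older flies. The opposite age difference was seen in *CR17567*, with 7.48 and 7.65 in younger flies and 5.23 and 6.07 in older flies on water and food. *CR43239* had 6.88 and 7.21 in younger flies and 5.36 and 5.40 in older flies. *CR43684* stayed between 4.91 and 5.54 in the 4 tables.

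Comparing older with younger flies shows which of these genes differed in level with age. On water, 168 noncoding genes were listed at both ages, and 46 of them (27.4%) were lower in older flies by 1 or more on the log2 scale, against a background of 17.9% of all genes. In the other direction 12 (7.14%) were higher, against 3.45%. On food, 62 of 185 (33.5%) were lower, against 18.5% of all genes, and 13 (7.03%) were higher, against 5.66%. The median difference between ages was -0.06 on water and -0.37 on food, where that of all genes was 0.09 and 0.16. Of the 152 noncoding genes in every table, 37 (24.3%, against 15.7%) were lower and 9 (5.92%, against 2.37%) were higher in older flies on both diets.

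As for listing, level has to be set beside these shares. Among genes with a mean logCPM under 3 in the compared tables, 29.0% of the noncoding genes and 32.0% of all genes were lower in older flies on water, and 35.6% and 30.7% on food. The excess over the background in the whole set was therefore not seen on water among genes of low level. At a logCPM of 3 or more, 10 of 44 noncoding genes on water (22.7%, against 14.2% of all genes) and 14 of 50 on food (28.0%, against 15.3%) were lower, and 6 (13.6%, against 3.49%) and 7 (14.0%, against 6.07%) were higher. The comparison covers genes listed at both ages, 168 of the 267 listed in younger water and 185 of the 268 listed in younger food.

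**Figure D3:**
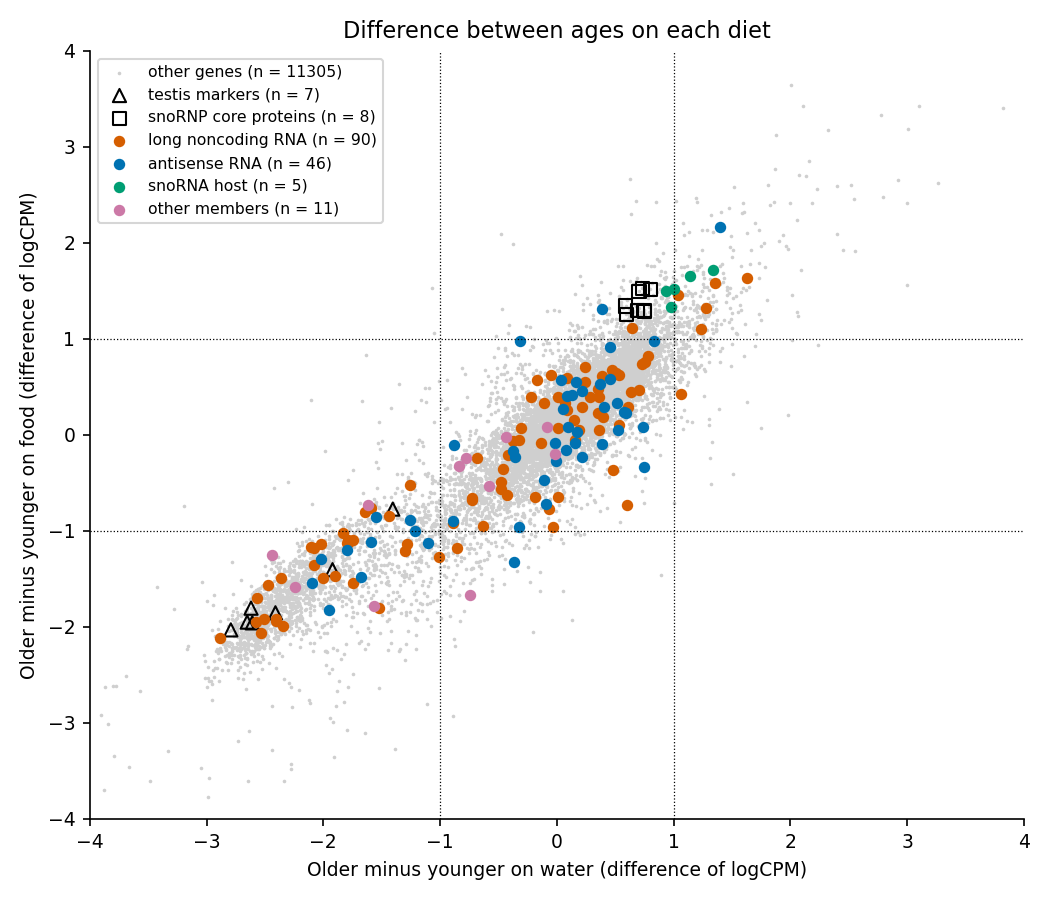
Difference in mean expression between older and younger flies (older minus younger logCPM, log2 scale) on water (horizontal axis) and food (vertical axis) for the 152 CR and Uhg genes listed in all 4 tables, colored by class, and for 11305 other genes in light grey. Open triangles are 7 testis markers, open squares are 8 snoRNP core proteins and dotted lines mark a difference of 1. A total of 22 other genes lie outside the axes, the triangles lie among the points at the lower left and the snoRNA hosts lie at the upper right.

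Of the long noncoding RNAs, 31 of 99 (31.3%, against 17.9% of all genes) were lower in older flies on water and 42 of 109 (38.5%, against 18.5%) on food. That background was not matched for level. Among all genes with a mean logCPM under 3, the shares lower were 32.0% on water and 30.7% on food. Of the antisense RNAs, 11 of 51 (21.6%) and 15 of 59 (25.4%) were lower, nearer to the shares of all genes of any level. The difference between the classes was not tested. Of the snoRNA hosts, 3 of 6 were higher on water (against 3.45% of all genes) and all 5 that were listed at both ages were higher on food (against 5.66%), and none was lower. Both rRNA pseudogenes were lower on food and 1 of them on water. The 2 hairpin RNAs, sources of endogenous small interfering RNAs, differed less. *CR32205* had a logCPM of 2.57, 2.24, 1.73 and 1.91, and *CR32207* had 4.29, 3.93, 3.85 and 3.90.

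The 5 genes with the largest lower level in older flies on both diets were long noncoding RNAs. *CR42767* had a logCPM of 4.01 (water) and 4.69 (food) in younger flies and of 1.13 and 2.58 in older flies, which was 7.38-fold lower with age on water and 4.33-fold lower on food. *CR9284* had 6.54 and 7.02 in younger flies and 4.00 and 4.96 in older flies. It was thus 5.80-fold and 4.18-fold lower. *CR33218* lies within an intron of *phl* and next to the insulin-like peptide gene *Ilp6*. Its level was 3.78 and 4.03 in younger flies and 1.43 and 2.05 in older flies (5.08-fold and 3.97-fold lower). *CR32661* had 5.65 and 6.14 against 3.07 and 4.19, and *CR44131* had 3.11 and 3.55 against 0.70 and 1.61. The lowest of the 4 values was that of older water in each of the 5.

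Some of the genes with lower levels lie side by side when the genes listed in at least 1 table are ordered along the reference. *CR32661*, *CR43157* and *CR32660* are consecutive in that order. *CR43157* had 4.37, 4.29, 2.73 and 3.49 and *CR32660* 4.99, 5.03, 3.20 and 3.90. *CR32657* and *CR32658* are neighbors as well, and both lie within an intron of *Ten-a*. *CR32657* had 5.51 and 5.42 in younger flies and 3.41 and 4.26 in older flies on water and food. *CR32658* had 6.41 and 6.73 in younger flies and 3.90 and 4.81 in older flies. The longest of 18 such runs held 4 genes, *CR43632*, *CR43633*, *CR43634* and *CR43847*. Of these, *CR43633* had 4.33, 3.77, 3.65 and 3.52 and *CR43634* had 4.13, 4.36, 3.27 and 3.18, while the outer 2 had at most 0.79 and were missing from older water. *CR43633* did not reach a difference of 1 between the ages on either diet, and *CR43634* did so on food alone. How many genes of the other runs were lower was not counted. The genes of these runs other than *CR32661* and *CR32657* were chosen after their values were seen.

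Most markers of the male reproductive tract were also lower in older flies. Of 8 testis markers 7 were listed, among them the testis tubulin gene *betaTub85D* and the sperm tail gene *dj*. All 7 were lower in older flies on water (differences of -2.79 to -1.41) and 6 of 7 on food (-2.03 to -0.77). Over all genes, the shares lower were 17.9% on water and 18.5% on food. The log2 of their summed CPM was 10.75, 10.84, 8.51 and 9.22, so that, as for *CR42767* and *CR9284*, older water was lowest. An older minus younger difference that was lower on water than on food was common. It was found in 102 of 152 noncoding genes and 7979 of 11457 genes in every table. Of 8 accessory gland markers, 5 were lower on water and 6 on food (against the same shares of all genes), with log2 sums of 12.10, 12.37, 10.84 and 10.89. *Acp70A* had differences of -0.47 and -0.35 on water and food, and *Acp26Ab* had 0.18 and 0.55 in the other direction. The part of testis and accessory gland RNA in the lower levels of the noncoding genes was not tested. Of the male dosage compensation genes *roX1*, *roX2* and *msl-2*, all were listed in every table.

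The 5 genes with the largest higher level in older flies on both diets were 3 long noncoding RNAs, 1 antisense RNA and the snoRNA host *Uhg5*. *CR34335* was 3.09-fold higher on either diet, and *CR31781* was 2.43-fold and 2.49-fold higher on water and food. *CR43334*, an RNA with 15466 bases of exon, had 1.14 and 0.57 in younger flies and 2.50 and 2.15 in older flies. The antisense RNA *CR43474* had a logCPM of 4.66 and 3.31 in younger flies on water and food and of 6.06 and 5.47 in older flies, and was 2.63-fold and 4.49-fold higher with age. It shares 1032 of its 1097 exon bases with *loco*, which regulates G protein signaling, and *loco* itself had 5.57, 5.35, 6.47 and 6.25, a difference of 0.90 on both diets. Since strand was not recorded, the values of *CR43474* and *loco* are not independent. The part of the injury response in these age differences was not tested. The other 4 genes higher on both diets were *Uhg2*, *Uhg4* and, named after their values were seen, *CR42491* (4.68 and 4.67 in younger flies, 5.91 and 5.77 in older flies) and *CR44138* (1.57 and 1.54, then 2.60 and 2.99).

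**Figure D4:**
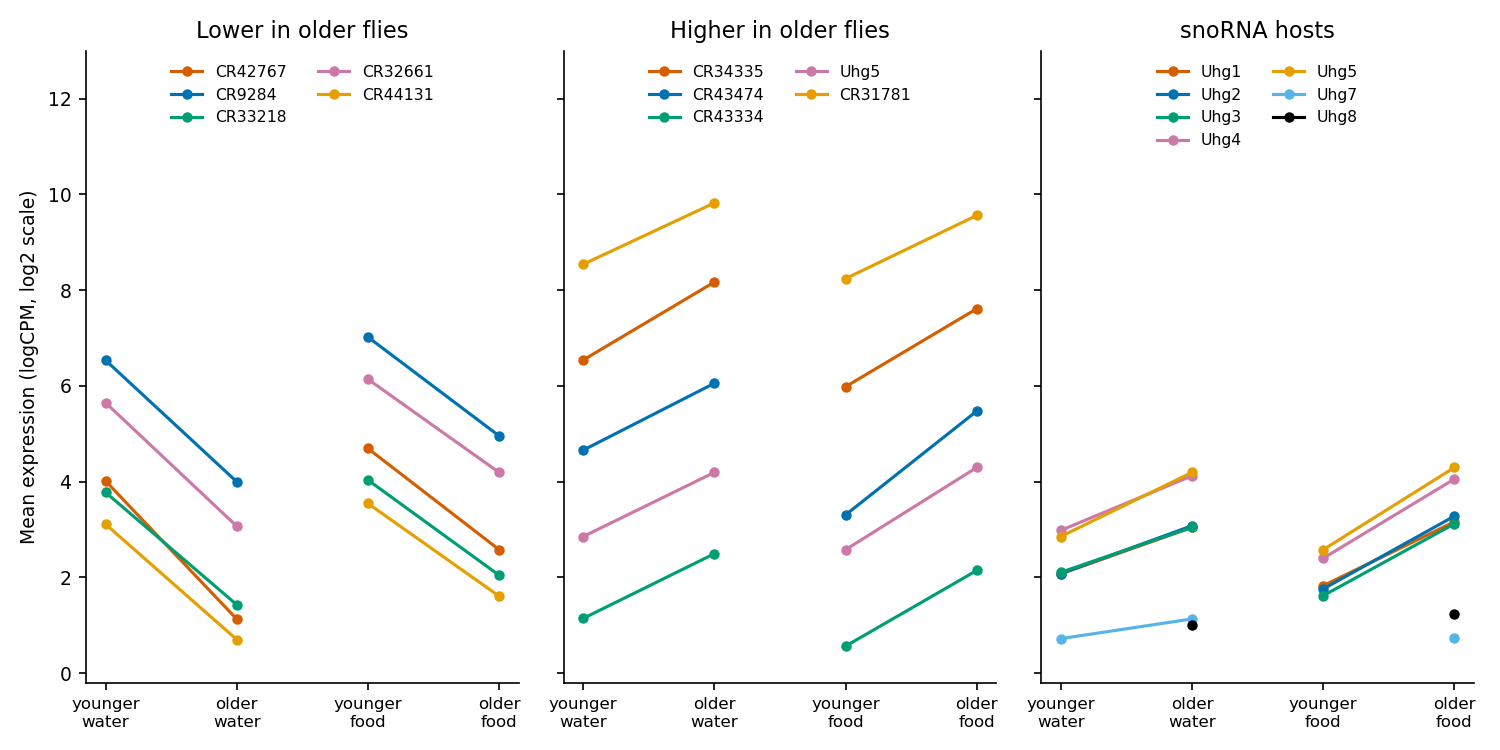
Mean expression (logCPM, log2 scale) in the 4 conditions of the 5 genes with the largest lower level and the 5 with the largest higher level in older flies on both diets, and of the 7 snoRNA hosts. Lines join the ages within a diet, each point is the authors' mean of 6 libraries with no error available, and a missing point is a gene not listed, as for *Uhg8* in younger flies.

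The snoRNA hosts are described as a group. *Uhg5* had a logCPM of 2.85 (water) and 2.58 (food) in younger flies and of 4.19 and 4.30 in older flies, and *Uhg4* had 2.98, 2.4, 4.12 and 4.06. *Uhg1* had 2.07, 1.83, 3.05 and 3.16, *Uhg2* had 2.08, 1.76, 3.08 and 3.28, and *Uhg3* had 2.11, 1.62, 3.05 and 3.12. The lowest value of each of these 5 was that of younger food, and *Uhg2*, *Uhg4* and *Uhg5* passed a difference of 1 between the ages on both diets, *Uhg1* and *Uhg3* on food alone (0.97 and 0.94 on water). *Uhg7*, not listed in younger food, had 0.72 in younger water and 1.13 and 0.74 in older flies, and *Uhg8* was listed in the older tables alone, with 1.00 on water and 1.24 on food. For the 5 hosts in all tables, the fold of older over younger flies was 1.91 to 2.53 on water and 2.52 to 3.29 on food. *Uhg1* and *Uhg4* share 10 and 132 exon bases with opposite-strand genes, while *Uhg2*, *Uhg3* and *Uhg5* share none.

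The proteins that assemble on snoRNAs were compared with the hosts. The list held 8 core proteins of the small nucleolar ribonucleoproteins (snoRNPs). It consisted of the box C/D proteins *Fib* (the methyltransferase fibrillarin), *nop5*, *Nop56* and *hoip*, and the box H/ACA proteins *Nop60B* (the pseudouridine synthase), *NHP2*, *CG7637* and *CG4038*. All 8 were higher in older flies on food, by 1.26 to 1.53 (median 1.32), against 5.66% of all genes. On water none of the 8 reached 1, with differences of 0.59 to 0.80 (median 0.72). *Fib* had a logCPM of 5.15, 4.51, 5.74 and 5.85. *Nop60B* had 5.63, 5.20, 6.32 and 6.49. Between younger food and younger water none of the 8 proteins or of *Uhg1* to *Uhg5* reached a difference of 1, with values of -0.75 to -0.17 for the proteins and -0.58 to -0.25 for the hosts, where the median of all genes was 0.04.

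Genes with and without overlap on the opposite strand were counted apart. Of the noncoding genes with no such overlap, 34 of 107 (31.8%, against 17.9% of all genes) were lower in older flies on water and 48 of 118 (40.7%, against 18.5%) on food. Of those with an overlap, 12 of 61 (19.7%) and 14 of 67 (20.9%) were lower, near the shares of all genes of any level. Neither set was matched for level, and among all genes with a mean logCPM under 3 the shares were 32.0% and 30.7%. The difference between the sets was not tested. The pairs with both genes listed at both ages numbered 58 on water and 62 on food. In younger flies, the noncoding gene had a lower logCPM than its partner in 54 and 56 of them. *CR43792* and *CR43793* are partners of each other and enter in both directions. The noncoding gene was lower in older flies in 12 pairs on each diet, and the partner was also lower in 2 of these on water and in 1 on food. Of the other pairs, the partner was lower in 1 of 46 on water and 5 of 50 on food. Over all genes, 17.9% were lower on water and 18.5% on food.

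**Figure D5:**
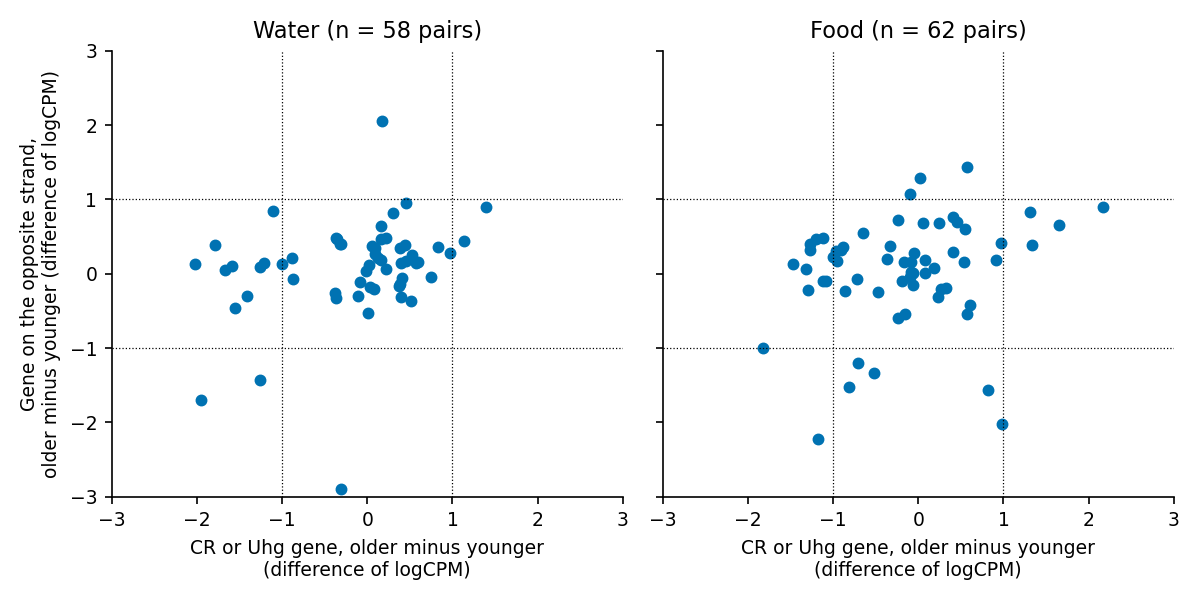
Difference in mean expression between older and younger flies (older minus younger logCPM, log2 scale) of CR and Uhg genes (horizontal axis) and of the gene sharing exon bases on the opposite strand (vertical axis), for 58 pairs on water and 62 on food. Dotted lines mark a difference of 1, and of the 12 pairs per diet to the left of -1 most lie between -1 and 1 on the vertical axis.

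Single pairs differed in whether the partners went apart. *CR31429* had a logCPM of 3.25 and 3.35 in younger flies and of 1.58 and 1.87 in older flies, while its partner *neur*, a ubiquitin ligase of Notch signaling, had 3.92, 4.22, 3.97 and 4.35. *CR44182* had 2.83, 2.76, 0.81 and 1.46, and its partner *Ppt2* had 5.03, 5.18, 5.16 and 4.97. In both pairs the partner differed far less between the ages. The partner was lower together with the noncoding gene on water in *CR43426* (2.90 to 0.95) and *CG32462* (4.13 to 2.43), and in *CR43978* (2.61 to 1.35) and the seminal fluid gene *Sfp78E* (5.84 to 4.41), which share only 24 exon bases. These 4 pairs were chosen after their values were seen.

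Food and water were compared at each age, with time after injury differing as well. Few noncoding genes differed by 1 or more. In younger flies 2 of 250 (0.800%) were higher on food, against a background of 1.22% of all genes, and 2 (0.800%) were lower, against 0.736%. In older flies 5 of 169 (2.96%) were higher on food, against 2.55%, and 1 (0.592%) was lower, against 0.604%. Some of those higher on food are now named as protein-coding, 1 in younger flies (*CR43051*) and 2 in older flies (*CR43051* and *CR43845*). At this threshold the shares were near those of all genes, on counts of 1 to 5 genes. At a difference of 1.5-fold, 8.80% of the noncoding genes in younger flies were lower on food, against 3.61% of all genes, and 8.88% in older flies, against 2.57%, while 8.40% (against 5.36%) and 18.9% (against 15.9%) were higher. Centered on the median of all genes, the counts past 1 in older flies were 3 higher (1.78%, against 1.06%) and 3 lower (1.78%, against 0.906%), so the lean toward higher was not kept. The median difference was 0.06 in younger and 0.04 in older flies, where that of all genes was 0.04 and 0.15.

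Those of the genes past 1 that lie outside the naming rule are named after their values were seen. *CR43051*, now named as protein-coding, passed 1 at both ages. Few genes of any kind did so, since over all genes 17 of the 360 higher on food at either age were higher at both, and 26 of the 127 lower at either age were lower at both. In younger flies *CR43051* (1.98 on water and 2.98 on food) and *CR44155* (0.22 and 1.28) were higher on food, and *CR43474* (4.66 and 3.31) and *CR44130* (1.70 and 0.41) were lower. In older flies *CR42767* (1.13 on water and 2.58 on food), *CR32690* (2.86 and 4.31), *CR43051* (1.90 and 3.06), *CR32661* (3.07 and 4.19) and *CR43845* (1.23 and 2.23) were higher on food, and *CR44145* (1.82 and 0.58) was lower. Of the 5 higher in older flies, 4 were lower with age on both diets, the exception being *CR43051*. Among genes in every table, 24.3% of the noncoding genes and 15.7% of all genes were lower with age on both diets. The older water value enters both the age and the diet difference, so these calls are not independent. The same count among all genes higher on food was not made. In older flies, 1 of the 7 testis markers (*dj*) passed 1 as higher on food, with differences of 0.25 to 1.23 over the 7 (median 0.87), and their part in these differences was not tested.

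Other genes kept 1 direction at both ages at a smaller size, and none of these passed 1 at both ages. On food *CR42839*, which lies beside the gut GATA factor gene *GATAe*, had a logCPM of 1.58 and 2.20 in younger and older flies, against 0.75 and 1.28 on water, a fold of food over water of 1.78 and 1.89. The fold of *CR42862* was 1.90 and 1.53. That of *CR42547*, antisense to *CG15674*, was 1.87 and 1.45. *CG15674* had the same direction (2.80 and 3.53 on water and food in younger flies, 2.50 and 3.29 in older flies). *CR42547* shares 1412 of its 2463 exon bases with *CG15674*. Since strand was not recorded, their values are not independent.

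The 5 genes with the largest differences toward a lower level on food at both ages included several beside genes of known function. *CR43911*, next to the sex peptide gene *Acp70A*, had 1.44 and 0.62 on water and food in younger flies and 0.98 and 0.27 in older flies, and *Acp70A* had 7.62 and 6.63, then 7.15 and 6.28. *CR43612*, within an intron of *sowah* and next to the homeobox gene *ara*, had 2.67 and 1.92, then 3.18 and 2.57. *CR43491*, between the homeobox genes *B-H2* and *B-H1*, had 2.84 and 2.25, then 3.57 and 2.98. *CR43793* had 1.81 and 1.21, then 2.21 and 1.39, and *CR43474* completed the 5.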

How the data were processed

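RNA from whole male flies was sequenced as 24 polyA-selected mRNA libraries, 3 per group in 8 groups. The authors trimmed reads with Skewer, aligned them with STAR 2.4.2a, estimated expected counts with RSEM 1.2.22, removed low or empty genes and used edgeR 3.10.5 (versions and build dm3 from the submitters' processing notes). The gene annotation is not given in the sources used here. The authors' deposited tables, 1 per condition and normalized separately, give mean expression as logCPM on the log2 scale, pooled over 6 libraries. Their remaining columns hold the study's own comparisons of injured with uninjured flies (log2 fold change, likelihood ratio, p-value and FDR) and were not used, so injury responses were not analysed here. Library totals are unknown, values of single libraries were not analysed here, and precision could not be measured. edgeR's mean logCPM includes a prior count, which pulls low values together.

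Differences between tables were taken per gene listed in both, without a test, and counted at 1 on the log2 scale (2-fold) beside all genes, and these steps were tested on simulated data. The members and lists were chosen with earlier results of these data known. Named genes were the Uhg genes, the 10 most abundant per kilobase, the 5 largest differences per direction shared by both diets or both ages, the 5 highest of single tables, and fixed lists (snoRNP proteins, other noncoding RNAs, cell type markers). Gene classes, exon lengths, neighbors and overlaps came from the Release 6 annotation (Ensembl release 115), of another build, so no coordinates are given. Neighbors and overlapping genes were taken among the genes listed in at least 1 table. No sequences of these genes were analysed here. Alternatives tried were other thresholds, a minimum logCPM of 0, centering on the median, genes in all 4 tables, and CR names alone. A maximum mean logCPM of 3 and the removal of genes with opposite-strand overlap were chosen after seeing the data. Python 3.11.15, numpy 2.4.6, pandas 2.3.3 and matplotlib 3.10.9 were used.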

Additional observations from a re-analysis of the deposited data

How the results depend on the processing

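The number of noncoding genes past the threshold depends most on the threshold. At a difference of 1.5-fold it was 88 on water for age (36.3% lower and 16.1% higher, against 22.8% and 14.6% of all genes), 43 for diet in younger flies (8.80% lower and 8.40% higher, against 3.61% and 5.36%) and 47 for diet in older flies (8.88% and 18.9%, against 2.57% and 15.9%). At 2 (4-fold) it was 20, all lower, on water for age (11.9%, against 10.9% of all genes), 4 on food for age (3 lower, 1.62%, against 4.09%), and 0 and 0 for diet in younger and older flies. Without genes that overlap an opposite-strand gene, 1 gene remained for diet in younger flies. The median logCPM of genes listed in all 4 tables was 2.61 (water) and 2.42 (food) for younger flies and 2.06 and 2.17 for older flies, higher than over all noncoding genes listed, by the construction of that set. The other 42 of 54 values changed by less than 1.5 times or by less than 0.1, as totals of both directions, and centering turned the 5 higher and 1 lower for diet in older flies into 3 and 3 and the 2 and 2 in younger flies into 1 and 4. Centering on the median of all genes reversed no called difference of the 36 named genes, and moved 4 of their 119 differences across 1 (*Uhg2* to 0.91 on water, *CR43994* to -1.07 on food, *CR43051* to 0.97 in younger flies and *CR32661* to 0.98 in older flies). No paired analysis was possible because the tables hold no values per library, and replicates could not be left out for the same reason. Low levels limit the precision most, since about 6 in 10 of these genes had a logCPM below 2.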

Other observations

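Of 17 other named noncoding RNA genes, 12 were listed, and the 2 genes of the 7SL RNA of the signal recognition particle, *7SLRNA:CR32864* and *7SLRNA:CR42652*, had the same logCPM in every table (5.05 and 5.78 in younger flies on water and food, 4.21 and 4.11 in older flies), so that their reads were not separated. Neither reached a difference of 1 on water (-0.84), and both passed it on food (-1.67). *roX1*, an RNA of the male dosage compensation complex, had 8.39, 8.23, 8.79 and 8.95, and the heat shock RNA *Hsromega* had 7.20, 7.08, 7.90 and 7.76. *pncr003:2L* stayed between 4.73 and 5.11 and *pncr009:3L* between 4.18 and 4.53. *roX2* had 3.06, 3.01, 3.43 and 3.20, *iab-8* 2.30, 1.90, 2.51 and 2.46, and *pncr016:2R* 3.47, 3.07, 3.64 and 2.87. *RNaseP:RNA* had 0.72, 1.21, 0.68 and 0.75, *RNaseMRP:RNA* was listed in older water alone (0.91), and *sphinx* was listed in every table but younger food (0.57, 1.14 and 1.30).

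The 8 genes whose CR number now belongs to a protein-coding gene differed among themselves. *CR43497*, now *CG32700*, had 2.90, 3.39, 2.89 and 3.19 in that same order of tables, and *CR44198* had 3.06, 2.73, 2.47 and 2.20. *CR43845* had 3.67 and 3.48 in younger flies and 1.23 and 2.23 in older flies, *CR43610* had 2.41 and 1.88, then 0.79 and 1.15, and *CR43844* had 1.75 and 1.97 and was missing from older water, with 0.39 in older food. *CR43920* was listed in older water alone, with 0.60.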
